A study of Mus musculus with 4 samples.

Results

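The cytosolic ribosomal protein genes, the Rpl, Rps and Rplp families of the mouse, are described here in stromal cells sorted from the large intestine. Members were chosen by name alone: symbols of the form Rpl or Rps with a number and an optional suffix, the Rplp stalk genes and Rpsa, leaving out the Rps6k kinases and pseudogene symbols. The rule found 84 of the 23284 gene symbols, 51 of the large subunit and 33 of the small one. The series holds 4 RNA-seq libraries, 1 per group, made from cells that carried podoplanin and were negative for CD45, CD31, EpCAM and the dead-cell dye 7AAD. The groups are wild-type BALB/c, Rag2 KO on BALB/c, wild-type C57BL/6J and IL-10 KO on C57BL/6J. Values of the 4 libraries are given in that order throughout. Ages, sexes and the number of mice per library are not in the labels, so no spread between mice can be given and no test was made. Levels are in FPKM, fragments scaled to transcript length and to the size of the library. How library size was normalized is not given in the sources at hand. A log2 ratio is the difference of log2(FPKM + 1) between a pair of libraries.

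Each ribosome joins a large and a small subunit, and nearly every protein of both is present in 1 copy, so the genes are needed together in every cell that makes protein. Their messenger RNAs are short and abundant, and many start with a run of pyrimidines, the 5′ terminal oligopyrimidine (TOP) motif, through which the mTOR pathway controls their translation. Mammalian genomes also carry many processed pseudogenes, intronless copies of these messenger RNAs, whose sequence can be almost that of the gene.

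The TOP motif is shown first because the family is known for it. RefSeq (GRCm38.p6) listed a promoter window for 63 of the 84 members, 250 bases before to 50 bases after the first listed start site. The windows below hold 10 bases before and 20 bases from the start site, read along the gene's strand. Capitals mark the longest pyrimidine run that touched the stretch from 5 bases before to 10 bases after the start. It need not include the start itself, as in Rpl13a. The first 6 are among the longest runs of the members, and Rps18 and Rps6 are added because their levels differ between the strains.
Rpl27a, chr7:109519185-109519214, plus strand: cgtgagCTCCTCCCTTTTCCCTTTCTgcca
Rpl35, chr2:39005112-39005141, minus strand: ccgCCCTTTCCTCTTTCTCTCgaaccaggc
Rpl15, chr14:18270967-18270996, minus strand: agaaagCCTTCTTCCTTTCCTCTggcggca
Rpl13a, chr7:45128726-45128755, minus strand: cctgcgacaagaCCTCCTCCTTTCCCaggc
Rpl14, chr9:120571507-120571536, plus strand: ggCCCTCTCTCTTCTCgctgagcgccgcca
Rps10, chr17:27635225-27635254, minus strand: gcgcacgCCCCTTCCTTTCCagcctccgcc
Rps18, chr17:33955646-33955675, minus strand: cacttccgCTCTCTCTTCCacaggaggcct
Rps6, chr4:86857348-86857377, minus strand: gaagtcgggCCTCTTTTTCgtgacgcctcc
A run of at least 8 pyrimidines that touched the stretch from 5 bases before to 10 bases after the start was found in 23 of the 63 members (36.5%) and in 11.1% of 26962 other genes. A C at the start itself was found in 33.3% of members and 16.1% of other genes. Searched on both strands of the 300 bases, the ETS family motif ACTTCCG was in 33.3% of members against 6.52% of other genes. The YY1 motif AAGATGGC was in 7.94% against 2.87%, and the GC box GGGCGG in 60.3% against 35.9%. None of these 3 motifs contains another, and a match describes the sequence only. A listed start need not be the one used in these cells.

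Some facts of the whole series bear on every comparison. The gene labelled as knocked out did not check the labels: Il10 had 3.33 FPKM in wild-type C57BL/6J and 129.9 in the library labelled IL-10 KO, and Rag2 was listed at 0 in the other 3 libraries and at 0.712 in the library labelled Rag2 KO. A value summed over the gene is blind to a deletion of part of it, and directions below are those of the labelled libraries. Markers of the labelled cell type were high, with Col1a1 between 773 and 1089 FPKM and Pdpn between 158 and 293. Leukocyte transcripts were present despite the gate: Ptprc, which encodes CD45, had 8.31, 11.5, 3.34 and 43.1 FPKM. Steps between the lowest FPKM put the sequencing depth of the other libraries at 0.972, 0.877 and 0.842 of that of wild-type BALB/c. This holds only where FPKM were scaled by fragment totals, which is not known.

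The members spanned very uneven levels, from abundant transcripts to none. Their FPKM summed to 13587, 11094, 13467 and 13272, which was 3.04%, 2.37%, 2.85% and 2.73% of all FPKM of the library. By mean over the 4 libraries, 26 members had at least 100 FPKM, 27 had between 10 and 100, 22 had between 1 and 10, and 9 had less than 1. The median member had a mean of 27.0 FPKM in the large subunit and 69.4 in the small one. The 8 highest members carried between 52.3% and 55.8% of the members' sum in each library. In bulk libraries, fewer cells of a type and less RNA per cell cannot be told apart.

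The highest members came from both subunits. Rplp1, one of the acidic proteins of the stalk that recruits translation factors, led with 1441, 1325, 1336 and 1423 FPKM. Rps15, of the small subunit head, had 1090.2, 896, 1155 and 1096 FPKM and was lowest in the Rag2 KO library. The large subunit proteins Rpl8 and Rpl4, the latter lining the exit tunnel of the nascent chain, had 936, 799.8, 953 and 889 FPKM and 792, 584, 712 and 665 FPKM. Rpl41, which encodes the smallest ribosomal protein, had 661, 683, 619 and 696 FPKM and was lowest in wild-type C57BL/6J. Rps9 followed with 773, 551, 623 and 594 FPKM and Rpl32 with 619, 482, 568 and 620.3. No library differed from another by as much as 2-fold in any of these genes. Among members with roles outside the ribosome, Rpsa, also known as the laminin receptor, had 43.3, 37.4, 42.2 and 42.6 FPKM, and Rps3, which has been linked to DNA repair, had 394, 316, 394 and 388.

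**Figure D1:**
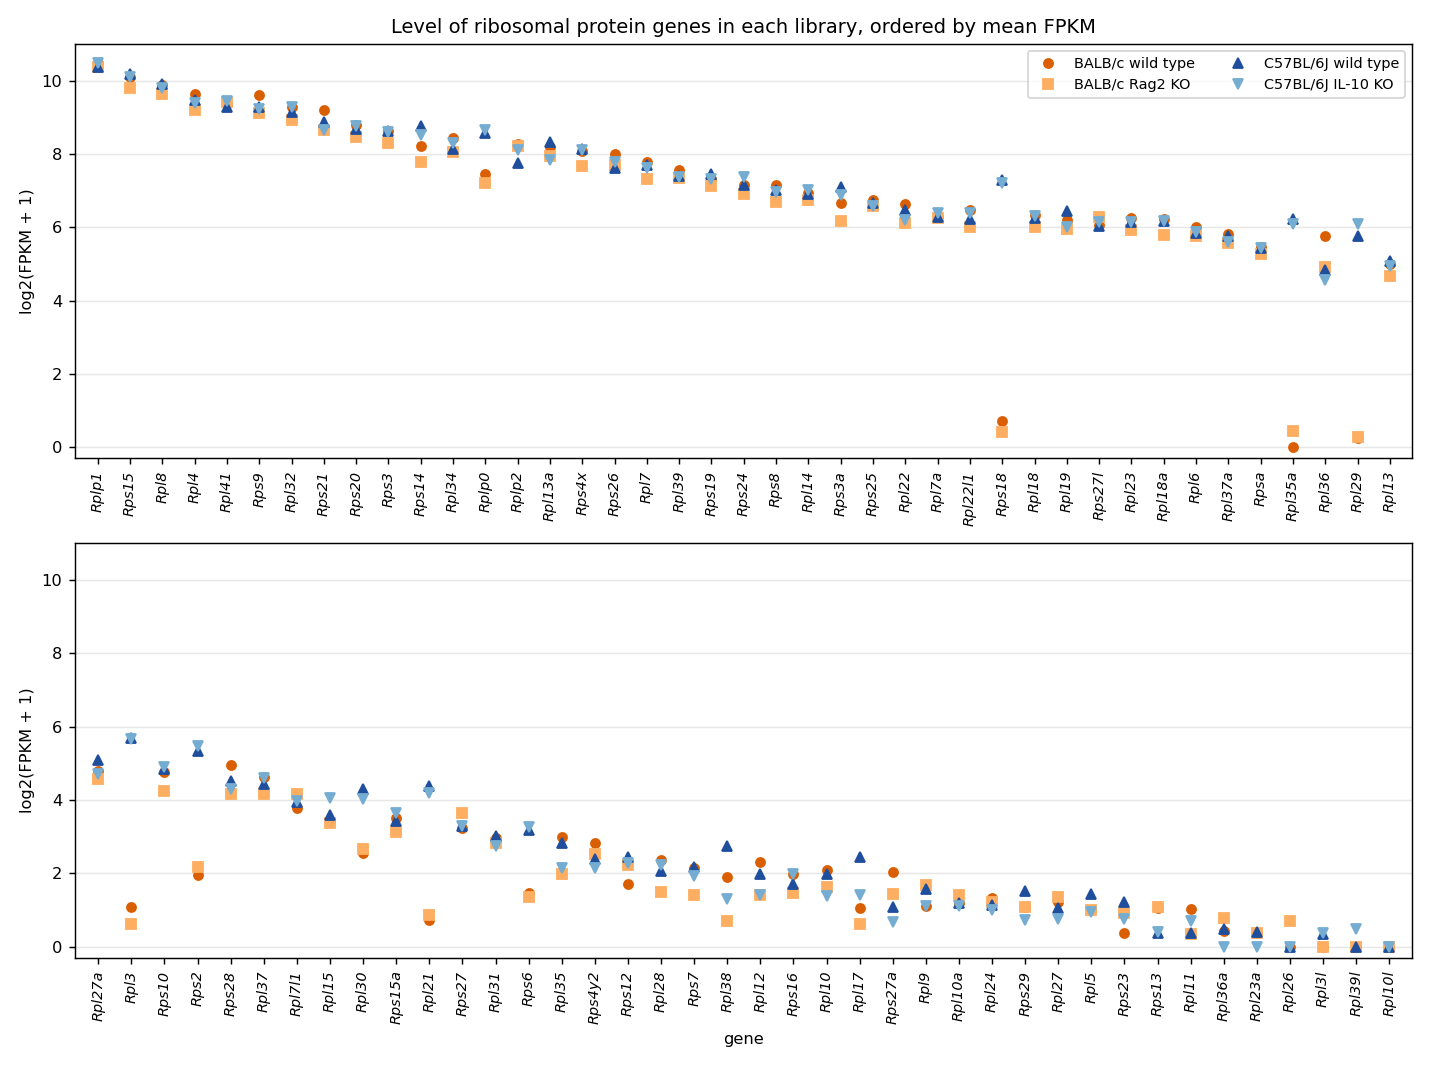
Level of 81 members in each library, as log2(FPKM + 1), ordered by mean FPKM from left to right and from the upper to the lower panel. Levels run from a mean of 1381 FPKM for Rplp1 to 0 for Rpl10l, and the symbols of the BALB/c libraries (orange) lie far below those of the C57BL/6J libraries (blue) in a few genes such as Rps18, Rpl35a and Rpl29.

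Genes whose proteins every ribosome contains were nonetheless listed near 0. Of the 84 members, 6 were under 1 FPKM in all 4 libraries, against 43.8% of all symbols. Rpl10l was at 0 throughout, and Rpl39l (0, 0, 0 and 0.399 FPKM) and Rpl3l (0, 0, 0.275 and 0.287) were close to it. These are paralogues known from testis, in the case of Rpl10l and Rpl39l, and from heart and skeletal muscle, in the case of Rpl3l. The other 3 encode universal subunits: Rpl26 had 0.000678, 0.615, 0 and 0 FPKM, Rpl23a had 0.286, 0.294, 0.326 and 0 and Rpl36a had 0.357, 0.734, 0.407 and 0. Where the lowest step between values is taken as 1 fragment, the values of Rpl23a correspond to 1, 1, 1 and 0 fragments and those of Rpl36a to 1, 2, 1 and 0. The similarly named Rpl36al, outside the naming rule, had 52.9, 57.4, 56.6 and 61.3 FPKM. Under a limit of 5 FPKM in every library, for which all symbols were not counted, 23 members were found, 20 of them not paralogue symbols. Among them were Rpl5 and Rpl11, which bind the 5S RNA and Mdm2, with 1.02, 1.01, 1.69 and 0.911 FPKM and 1.04, 0.267, 0.296 and 0.617 FPKM. Rps27a, which encodes a ubiquitin fusion, had 3.14, 1.72, 1.12 and 0.583 FPKM, and Rpl10, needed for the last step of large subunit maturation, had 3.24, 2.11, 2.92 and 1.62.

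Most of the low members had a coding sequence that is found elsewhere in the annotation. The coding sequence of 83 members was compared with all other annotated transcripts of GENCODE (GRCm38). A pseudogene copy of at least 95% identity over at least 90% of the coding sequence was found for 76 of the 83, with a median of 5 copies and a maximum of 55, for Rpl21. The share of 50-base stretches of the coding sequence that occur unchanged in another annotated gene had a median of 90.3%. Among the 23 members under 5 FPKM in every library the median share was 100%, and 19 of the 23 had a share of at least 90%. Among the 26 members with a mean of at least 100 FPKM the median share was 69.2%, and 4 of the 26 had at least 90%. Rps3 shared 8.09%, Rpl8 8.73% and Rpl4 20.3% of their stretches with another gene, and all were among the high members.

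Over genes, the mean log2(FPKM + 1) of the members and the number of copies by pseudogene name had a Spearman rho of -0.33 (n = 84). With the number of near-identical pseudogenes rho was -0.33 (n = 83), and with the share of 50-base stretches it was -0.56 (n = 83). Without paralogue symbols these were -0.44 (n = 78), -0.46 (n = 77) and -0.76 (n = 77). The share of stretches and the removal of paralogue symbols were chosen after seeing the data. With transcript length rho was 0.03 (n = 83). These points are genes measured in the same 4 libraries and are not independent. How fragments that match several places were assigned is not given in the sources used here, so an FPKM near 0 for these genes does not show that the gene is silent.

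**Figure D2:**
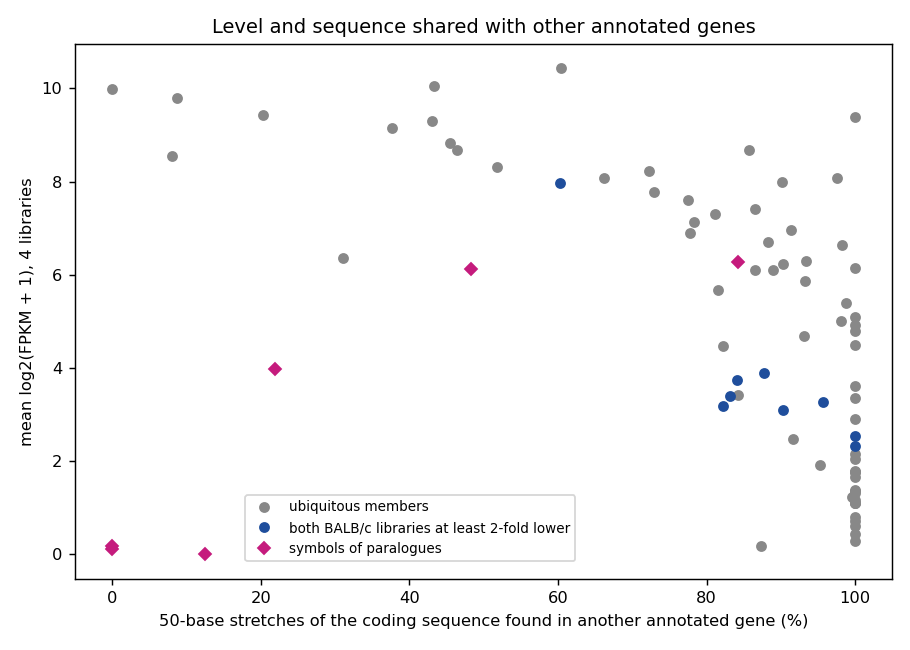
Mean log2(FPKM + 1) over the 4 libraries (vertical axis) against the percentage of 50-base stretches of the coding sequence that are found in another annotated gene (horizontal axis), for 83 members. Points to the left are mostly high, and the column at 100% spreads down to near 0. Of the paralogue symbols (diamonds), Rpl10l, Rpl39l and Rpl3l at the lower left are low with little shared sequence, while Rpl7l1, Rps27l and Rpl22l1 lie higher.

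The largest differences among the members lay between the strains. Of the 78 members with at least 1 FPKM in some library, 9 (11.5%) were at least 2-fold lower in both BALB/c libraries than in both C57BL/6J libraries. Among all 13078 genes compared this share was 0.497%, or 65 genes. None of the 78 members was above in the same way, against 0.306% of all genes. The strain distance is the log2(FPKM + 1) gap between the nearest BALB/c and C57BL/6J library.

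Rps18, of the small subunit head, had 0.635, 0.326, 156 and 146 FPKM, a distance of 6.49. Rpl35a, mutated in some patients with Diamond-Blackfan anaemia, had 0, 0.366, 74.2 and 66.7 FPKM, a distance of 5.63. Rpl29 had 0.1997, 0.205, 53.1 and 67.1 FPKM, which corresponds to 1 and 1 fragments in the BALB/c libraries and 233 and 283 in the C57BL/6J ones. In these 3 genes the BALB/c libraries were at or near 0 while the C57BL/6J libraries were well expressed. Rpl3, close to the peptidyl transferase centre, had 1.13, 0.536, 50.97 and 49.97 FPKM, and Rpl21 had 0.669, 0.813, 19.8 and 17.3. These 5 genes were at least 10 times lower in FPKM + 1 in both BALB/c libraries, and they were among the 10 such genes of all genes compared (0.0765%).

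The other 4 had at least 1 FPKM in every library, with Rps2 and Rps6 low in BALB/c. Rps2, at the entry of the mRNA channel, had 2.91, 3.52, 39.8 and 43.6 FPKM, with a C57BL/6J mean 13.0 times the BALB/c mean. Rps6, the substrate of the S6 kinases, had 1.77, 1.56, 8.10 and 8.63 FPKM (5.01 times), and Rpl30 had 4.92, 5.41, 18.6 and 15.4 (3.29 times). Rplp0, the base of the stalk and a common reference gene in quantitative PCR, had 175, 148, 376 and 405 FPKM (2.42 times). In all 9 the strains did not overlap, and the log2 ratio of a KO library to the wild type of its own strain lay between -0.47 (Rpl3) and 0.45 (Rpl35a).

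**Figure D3:**
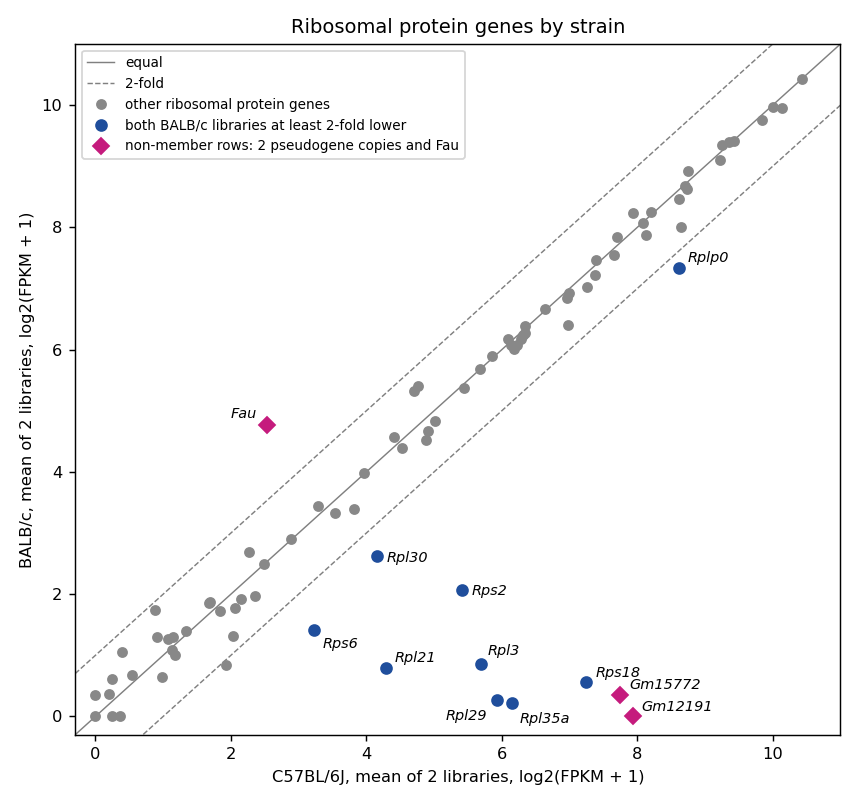
Mean log2(FPKM + 1) of the 2 BALB/c libraries (vertical axis) against that of the 2 C57BL/6J libraries (horizontal axis) for the members, with the 9 separated members in blue and Fau and the pseudogene copies Gm15772 and Gm12191 as diamonds. Most members lie along the line of equality, while Rps18, Rpl35a and Rpl29 lie near 0 on the BALB/c axis only, and Fau lies on the other side.

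The strains were also separated by 2 rows that are copies of members. Ranked by strain distance, the first and second of all genes were the processed pseudogenes Gm12191, a copy of Rpl30, and Gm15772, a copy of Rpl26. Gm12191 (chr11:49678620-49679143) was listed at 0 in both BALB/c libraries and at 262 and 227 FPKM in the C57BL/6J ones. Gm15772 (chr5:3236390-3236928) had 0.642, 0.000332, 226 and 201 FPKM. Neither is a member, and both are given because their sequence is almost that of the member. Over the coding sequence Gm15772 is 99.5% identical to Rpl26 (chr11:68901566-68904534), with the substitutions C177T and T288C, counted from the first coding base with the member's base first. Gm12191 is 99.7% identical to Rpl30 (chr15:34440505-34443276), with G96A as the only substitution. The stretches below, from coding bases 147 to 206 of Rpl26 and 66 to 125 of Rpl30, show the first substitution of each pair in capitals.
Rpl26: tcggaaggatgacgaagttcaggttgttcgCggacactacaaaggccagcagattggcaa
Gm15772: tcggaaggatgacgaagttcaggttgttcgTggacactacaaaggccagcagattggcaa
Rpl30: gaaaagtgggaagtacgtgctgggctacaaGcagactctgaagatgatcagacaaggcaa
Gm12191: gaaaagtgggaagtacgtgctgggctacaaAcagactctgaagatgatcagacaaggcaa
Added together, Rpl26 and its copy had 0.643, 0.616, 226 and 201 FPKM, and Rpl30 and its copy had 4.92, 5.41, 280.1 and 242 FPKM. The sum of each pair was far lower in both BALB/c libraries. Rpl26 has 6 near-identical pseudogenes and Rpl30 has 12, so each sum leaves out other copies. How fragments were shared among the copies was not tested. Gm12191 and Gm15772 were the only copies of members found among the 65 genes at least 2-fold lower in both BALB/c libraries. Other rows that carry a member's coding sequence were not separated in this way. Gm15421, a pseudogene of Rpl22l1, had 43.8, 36.1, 32.5 and 34.6 FPKM. BC004004, which matches Rpl21, had 15.4, 15.3, 16.1 and 18.1 FPKM. Gm5148, annotated as protein coding and a copy of Rps23, had 22.4, 19.96, 23.2 and 18.6 FPKM, beside 0.289, 0.892, 1.32 and 0.686 for Rps23 itself.

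All 9 separated members had near-identical pseudogenes, as had 76 of all 83 members. So had 46 of the 51 members that were neither separated nor under 5 FPKM throughout. The median number was 12 (range 3 to 55) in the 9, 5 in all 83, 6 in the 23 under 5 FPKM and 3 in the 51. The share of 50-base stretches found elsewhere had a median of 87.7% (range 60.3% to 100%) in the 9, 90.3% in all 83 and 85.7% in the 51. The reference sequence behind these copies is that of C57BL/6J. The part of mapping to copies in the strain distances was not tested.

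Sex-linked rows differed between the strains as well: Xist had 0.0509, 0.105, 23.02 and 44.9 FPKM. The Y-linked gene Ddx3y had 36.3, 31.5, 16.9 and 0.0269 FPKM, so that wild-type C57BL/6J held transcripts of both. Xist and Ddx3y thus also differed between the libraries of the IL-10 comparison. The part of sex in the strain distances and in the IL-10 comparison was not tested. Fau, outside the naming rule because it encodes a small subunit protein as a fusion, went the other way, with 33.2, 20.6, 5.50 and 4.17 FPKM. Between the wild types alone, 10 of 78 members were at least 2-fold lower in BALB/c (2.17% of all genes) and 1 was higher (1.81% of all genes). The tenth was Rpl17, with 1.06, 0.546, 4.44 and 1.68 FPKM. The median log2 ratio of the 78 members was 0.04, against 0.00 for all genes, and 34 of the 78 were below 0 (49.3% of all genes). At 10 FPKM or more in both wild types, 15 of 46 members were below 0, against 51% of 5370 genes, with a median of 0.08 against -0.01. A ratio of 0.2 or more was found in 10 of the 46 (19.7% of genes) and one of -0.2 or less in 5 (22% of genes).

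Paralogues of core members kept the same order in all 4 libraries, with 1 exception. Rps27l, a gene known to respond to p53, had 66.2, 77.0, 64.8 and 69.8 FPKM and exceeded its parent Rps27, with 8.47, 11.5, 8.72 and 8.76. All 50-base stretches of the Rps27 coding sequence occur in another annotated gene, so its level is uncertain. Rpl22 and Rpl22l1, which can replace each other in the large subunit, had 98.8, 68.4, 88.3 and 73.0 FPKM and 88.3, 63.3, 74.4 and 82.3 FPKM: Rpl22 was the higher in 3 libraries and Rpl22l1 in the library labelled IL-10 KO. A pseudogene of Rpl22l1, Gm15421, had 43.8, 36.1, 32.5 and 34.6 FPKM.

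Rpl7 was far above Rpl7l1, at 218, 159, 205 and 196 FPKM against 12.9, 17.0, 14.5 and 14.8. Rps4x, on the X chromosome, was far above Rps4y2, at 270.3, 204, 280.4 and 275 FPKM against 6.15, 4.78, 4.21 and 3.41. In RefSeq the symbol Rps4y2 is a synonym of a transcribed pseudogene, Rps4l. Rpl39, at 189.7, 161, 169 and 164 FPKM, was accompanied by 0, 0, 0 and 0.399 for Rpl39l.

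In the library labelled Rag2 KO, ribosomal protein transcripts were lower than in wild-type BALB/c in most members, by small amounts. Without the Rag2 protein antigen receptor genes are not rearranged, so mice that lack it have no mature B or T cells. Of 73 members compared, 0 were at least 2-fold higher (4.42% of all genes) and 2 were at least 2-fold lower (2.03% of all genes). Those 2 were Rpl38, with 2.77, 0.639, 5.75 and 1.48 FPKM, and Rpl35, with 6.99, 2.96, 6.09 and 3.42, both at low levels. Below 0 lay 61 of the 73 ratios, against 50.5% of all genes, and the median was -0.31, against -0.00 for 12336 genes.

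The shift was clearest in well expressed members. Of 46 with at least 10 FPKM in both BALB/c libraries, 43 (93.5%) had a ratio below 0, against 47% of 5330 genes at that level. Their median was -0.32 with an interquartile range of -0.45 to -0.21, and the median of all such genes was 0.02. A ratio of -0.2 or less was found in 39 of the 46, against 23.2% of genes. Members of both subunits were lower: 24 of 26 large subunit members (median -0.25) and 19 of 20 small subunit members (median -0.37) were below 0.

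The size differed from member to member. Rpl4 had 792 FPKM in wild-type BALB/c and 584 in the Rag2 KO library, a log2 ratio of -0.44. The ratio was -0.49 for Rps9, -0.41 for Rps4x and -0.45 for Rpl7. Other abundant members were nearly level, with -0.00 for Rpl7a (76.1, 75.9, 77.0 and 83.1 FPKM), -0.04 for Rplp2 and -0.12 for Rplp1. The lowest ratios among members at this level were those of Rpl36 (52.9, 29.0, 27.6 and 22.7 FPKM, -0.84) and Rps28 (29.9, 17.1, 21.8 and 18.7 FPKM, -0.77). Of their 50-base coding stretches 98.1% and 100% occur in another annotated gene, so their levels are uncertain. This share was also high for Rps4x (90.1%), Rpl7a (93.3%) and Rpl41 (100%), whose levels are uncertain too. The 3 above 0 were Rpl41 (0.05), which was below 0 when FPKM were rescaled without small RNAs, and the paralogues Rpl7l1 (0.37) and Rps27l (0.21), which stayed above 0.

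The Rag2 KO library was the lowest of the 4 for 37 of the 46 members with at least 10 FPKM everywhere (80.4%). Among all 4888 genes at that level it was the lowest for 16.1%. The exceptions were Rpl7l1, lowest in wild-type BALB/c, Rpl13a and Rpl36, lowest in the IL-10 KO library, and 6 members lowest in wild-type C57BL/6J, among them Rpl41, Rplp2, Rps26 and Rps27l. After rescaling to the median ratio of all genes the count was also 37, and without small RNAs it was 34.

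**Figure D4:**
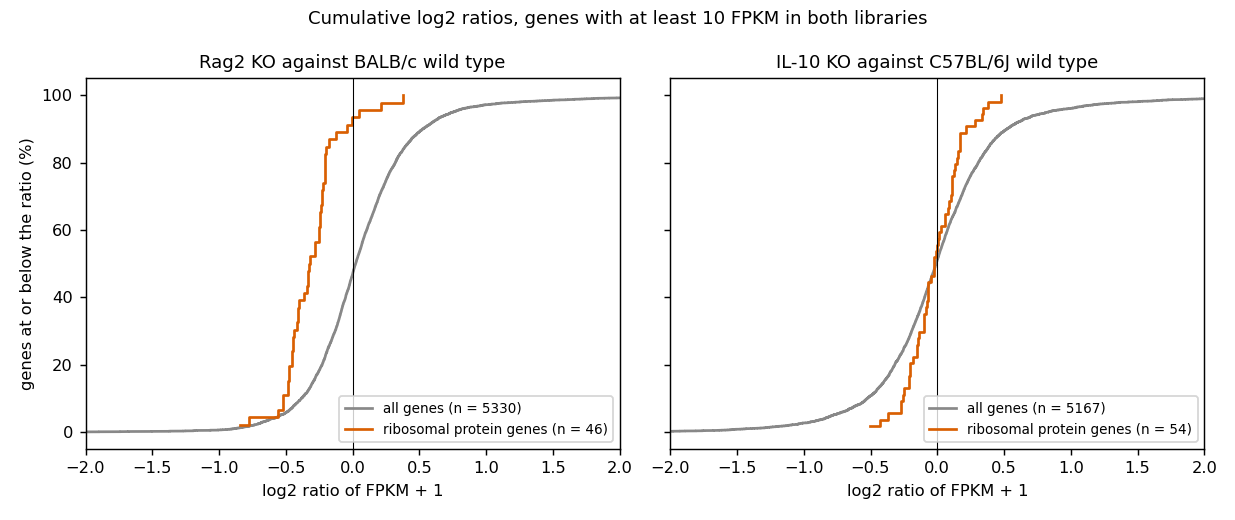
Cumulative percentage of genes (vertical axis) at or below a given log2 ratio of FPKM + 1 (horizontal axis, cut at -2 and 2) for members (orange) and all genes (grey) with at least 10 FPKM in both libraries. The members' curve lies left of 0 in the Rag2 comparison, with a median of -0.32 against 0.02, and is centred on 0 and steeper than that of all genes in the IL-10 comparison.

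Some other translation genes were lower as well, and some were not, and a gene can stand in more than 1 of these lists. Of all genes compared, 50.5% were below 0 in the Rag2 comparison, and the counts of the lists stand beside that share. Of 24 other genes known to carry TOP motifs, 23 were below 0, with a median of -0.34. Among them, the elongation factor Eef1a1 had 2145, 1547, 1770.0 and 1572 FPKM (-0.47), and Eef2, the translocase, had 1109, 717, 763 and 757 (-0.63). Gnb2l1, which encodes the ribosome scaffold Rack1, had 789, 591, 722 and 705 FPKM (-0.42). Of 41 initiation factors 22 were below 0, with a median of -0.01, and of 13 elongation and termination factors 8 were below 0, with a median of -0.06. Eif5a, outside the TOP list, had 209, 267, 248 and 262 FPKM (0.35).

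Of 64 ribosome biogenesis factors 18 were below 0, against 50.5% of all genes, and the median was 0.11. Nop58, of the box C/D snoRNP, was the most abundant of that list, with 316, 187, 276 and 130.1 FPKM (-0.75). Of 23 regulators of mTOR and of TOP mRNAs 12 were below 0, with a median of -0.01. Myc, which drives ribosome production, had 91.9, 78.3, 116 and 164 FPKM (-0.23). Each list is described by its count and median only, and 0 genes of these lists were at least 2-fold apart in the Rag2 comparison.

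The cell content of these libraries differed too. In the order of the libraries, B and plasma cell markers summed to 468, 3.15, 251 and 499.8 FPKM, of which Igj had 428, 1.36, 237 and 395. All 10 measured were lower in the Rag2 KO library, where Pou2af1, Tnfrsf17 and Pax5 were at 0. Of 11 T cell and innate lymphoid markers 9 were below 0 in the Rag2 comparison, with a median of -0.48, and 3 were at least 2-fold lower. Smooth muscle markers summed to 1001, 509, 919 and 397 FPKM, and in the Rag2 comparison 9 of 10 were below 0, 5 of them by 2-fold or more. Type I interferon-stimulated genes summed to 242, 1026, 239 and 867, with 15 of 20 at least 2-fold higher. Macrophage markers summed to 364, 773, 199.7 and 1576 FPKM, with 5 of 13 at least 2-fold higher, and neutrophil markers to 23.8, 243, 9.62 and 3857. Epithelial markers summed to 57.9, 179, 118 and 435 FPKM, with 11 of 13 at least 2-fold higher. The sums of fibroblast markers, at 18091, 16865, 19234 and 17844 FPKM, differed least among the sums of these lists. Of the 16 fibroblast markers 12 were below 0 in the Rag2 comparison, with a median of -0.10, and 0 were at least 2-fold apart. In the IL-10 comparison 10 of the 16 were below 0, with a median of -0.27, and 2 were at least 2-fold lower. The part of these cells and genes in the lower ribosomal protein values was not tested.

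In the library labelled IL-10 KO the members lay close to their levels in wild-type C57BL/6J. IL-10 is a cytokine that restrains inflammation, and mice lacking it are known to develop colitis. Of 76 members compared, 0 were at least 2-fold higher, against 10.1% of all genes, and 2 were at least 2-fold lower, against 3.82%. These were Rpl38 (-1.45) and Rpl17 (-1.02), whose values are given above and are low. Below 0 lay 47 of 76 ratios, against 50.2% of genes, and the median was -0.07, against -0.00 for 12790 genes. Rescaled without small RNAs, 62 of the 76 were below 0, with a median of -0.21 against -0.13 for all genes.

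At 10 FPKM or more in both C57BL/6J libraries, 30 of 54 members were below 0, against 51.1% of 5167 genes, with a median of -0.02. The members were packed more closely than other genes, with an interquartile range of -0.15 to 0.11 against -0.25 to 0.23 for all genes at that level. A ratio of -0.2 or less was found in 11 of 54 members (29.1% of genes) and one of 0.2 or more in 6 of 54 (27.9% of genes). Rpl13a, which is also part of an interferon-gamma-activated inhibitor of translation, had the lowest ratio of these (289.6, 248, 323 and 228 FPKM, -0.50). Rpl19 followed with 72.6, 60.9, 86.1 and 63.6 FPKM (-0.43). Among the highest ratios were those of Rpl15 (9.76, 9.34, 10.99 and 15.7 FPKM, 0.48) and Rplp2 (306, 297, 216 and 274 FPKM, 0.34). The share of 50-base stretches found in another annotated gene was 97.5% for Rpl13a, 100% for Rpl19 and Rpl15 and 66.2% for Rplp2. Levels of Rpl13a, Rpl19 and Rpl15 are thus uncertain.

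Markers of other cells differed far more between these libraries than the members did. Neutrophil markers summed to 9.62 FPKM in wild-type C57BL/6J and 3857 in the IL-10 KO library, and all 8 measured were at least 2-fold higher. The pan-haematopoietic markers summed to 83.9 and 805 FPKM, with 12 of 12 at least 2-fold higher. The epithelial markers had a median ratio of 1.63 (12 of 13 higher by 2-fold or more) and the smooth muscle markers one of -1.08 (7 of 10 lower by 2-fold or more). The part of these cells in the members' values was not tested. The other TOP genes had a median of -0.11, with 19 of 24 below 0, against 50.2% of all genes. Snhg12, a host gene of snoRNAs, was the 1 of them at least 2-fold lower (-1.04), and the host genes Snhg8 (-0.91), Snhg1 (-0.86) and Gas5 (-0.71) also had ratios below 0. The biogenesis factors had a median of 0.04, with 29 of 64 below 0, and Nop58 (-1.08) was the 1 at least 2-fold lower. The Rag2 and IL-10 comparisons share no library, and the difference between them was not tested.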

How the data were processed

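Per the labels' protocols, total RNA came from a miRNeasy kit and libraries from a stranded TruSeq mRNA kit. The authors deposited 1 FPKM value per gene symbol and library. Tools listed in the submitters' processing notes are Cuffdiff 2.2.1, TopHat2 2.1.1 with Bowtie2 2.2.8, and SAMtools 0.1.18, on build mm10. The annotation, the strand setting, the normalization and the treatment of reads with several matches are not given in the sources at hand. Fragment totals were not used, so depth is given only relative to wild-type BALB/c, from steps of FPKM under 0.3. It assumes that FPKM were scaled by fragment totals.

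Values were taken as log2(FPKM + 1) with Python 3.11.15 and pandas 2.3.3. Genes with at least 1 FPKM in either library were compared and called at 2-fold. With 1 library per group there is no test, p-value or standard error, so directions are those of single libraries. Copies were found with blastn among GENCODE transcripts of GRCm38, and promoters were taken from RefSeq.

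The members and lists were chosen with earlier results of these data known. Named members are the 8 highest, the 6 highest and 6 lowest ratios per comparison at 5 FPKM or more, those under 1 FPKM throughout, paralogues with their parents, and those 2-fold apart, and of other lists the 3 highest genes. Rps3, Rpsa, Rpl5, Rpl11, Rps27a, Rps23, Snhg1, Snhg8, Snhg12, Gas5, Fau, Xist, Ddx3y and the pseudogene rows were added after their values were seen. Some members are not reported by name here.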

Additional observations from a re-analysis of the deposited data

How the results depend on the processing

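No median changed sign under the alternatives run, nor did a named member that was 2-fold apart. Of 644 ratios of named members under alternatives, 18 changed sign, each with an absolute ratio of 0.13 or less, and 16 of these did so when rescaled without small RNAs. In the IL-10 comparison the 2 members at least 2-fold apart became 0 with a pseudocount of 5, 1 among genes with at least 5 FPKM and 4 at 1.5-fold. In the Rag2 comparison 2 became 6 with a pseudocount of 0.1, 0 with one of 5, 1 at 5 FPKM and 9 at 1.5-fold. Between the wild types 11 became 18 at 1.5-fold. Rescaling without small RNAs, which held between 8.80% and 14.8% of FPKM, moved the median of all genes to -0.13 in both KO comparisons and that of the members to -0.21 (IL-10) and -0.43 (Rag2). The 9 strain-separated members were 5 among members with less than 90% shared stretches. The 6 members near 0 were 1 under 0.1 FPKM, 23 under 5 FPKM and 3 without paralogue symbols. The rho of -0.33 between level and copies was -0.56 with the share of stretches and -0.44 without paralogue symbols. Alternatives on shared sequence, on 10 FPKM and on paralogues in the rho were chosen after seeing the data. Of the 644 ratios, 518 moved by less than 0.1 log2. No paired analysis was possible because each group has 1 library. The match of copies to a genome was not run, since no genome was used here. Depth limits low members: a value near 0.3 FPKM can be 1 fragment.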
